A study of Homo sapiens with 32 samples.

Results

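PPIH, PRMT1, KAT2A, CHD3 and CPT1B are 5 protein-coding genes whose transcripts gave many Alyref crosslinks in iCLIP and few for Chtop or for Nxf1. The 5 were selected on these measured values, out of 19234 protein-coding genes with a canonical transcript, so their tags per gene are given as a description and carry no test. The label under which they were gathered, a preference for Alyref over the other factors, held only in part. PRMT1 and PPIH were low for Chtop but not clearly low for Nxf1. KAT2A, CPT1B and CHD3 were low for Nxf1, and against Chtop CPT1B stood moderately higher for Alyref. The Alyref and Chtop libraries of KAT2A and of CHD3 overlapped. Pooled, the Alyref level was higher than that of Chtop in KAT2A and lower in CHD3. The FLAG-only Control gave 3 to 8 tags per gene, and for each gene at least 1 Control library stood within or above the Alyref range, so none of the 5 could be placed above that background library by library.

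The iCLIP assay joins protein to RNA in living cells with UV light, and after immunoprecipitation the reverse transcriptase tends to stop next to the crosslinked base, so each deduplicated read (tag) marks 1 contact. FLAG-tagged Alyref, Chtop or Nxf1 was expressed in FlpIn-293 cells, which the sample labels also call HEK293T, a line of human embryonic kidney origin with a fixed site for stable transgene integration, and all libraries were made with the same anti-FLAG antibody. Alyref and Chtop were induced with 10 ng/mL tetracycline and Nxf1 with 5 ng/mL, each over 48 h, and the labels give no dose for the FLAG-only Control. Each of the 4 groups had 3 libraries, sequenced in 32 lane runs in all. The labels name no removal of the endogenous proteins, so the tagged proteins are read as added to them. Each factor was expressed in its own stable line, so a difference in RNA level between lines and a difference in crosslinking cannot be told apart. Nothing states that the libraries came from separate cultures, so any p-value measures only the spread between these libraries.

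Alyref and Chtop belong to TREX, the complex that is loaded on nascent mRNA during transcription and splicing and that hands the mRNA to the export receptor Nxf1. Alyref contacts the cap-binding complex and the exon junction complex, which sits upstream of spliced junctions. The 5 genes serve different roles. PPIH encodes a cyclophilin of the U4/U6.U5 tri-snRNP of the spliceosome, and PRMT1 encodes the main asymmetric arginine methyltransferase, whose substrates include Alyref and Chtop. KAT2A (GCN5) is a histone acetyltransferase of the SAGA and ATAC complexes, CHD3 is a remodeller of the NuRD complex, and CPT1B is the muscle form of the mitochondrial carnitine palmitoyltransferase.

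Depth differed widely and limited what could be compared. Alyref libraries held 81307 to 631704 tags, Chtop libraries 47052 to 538844, Nxf1 libraries 8134 to 179346 and Control libraries 7017 to 46628. In the shallowest Nxf1 library 3 tags were worth 369 tags per 1000000 tags (CPM), and in the shallowest Control library 428 CPM, so a count of 0 there allowed a level above any Alyref value of the 5 genes. The tag mixture differed too. Over the 16760 genes with 3 or more exons, introns held 30.7% of the Chtop tags, 47.6% of the Alyref tags, 65.7% of the Nxf1 tags and 78.6% of the Control tags. The 5 genes together held 1318 of 2729065 tags.

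The bases below were the first 1 or 2 of each gene by the number of Alyref libraries and then by tags. Only bases seen in at least 2 Alyref libraries were taken, and ties went to the lower genomic position. In KAT2A all 13 such bases were tied, as were all 4 in PRMT1, so those shown are not the strongest sites. The bases place Alyref tags at single-base resolution, but with so few tags they cannot be set above the Control. Each line reads 5′ to 3′ on the transcribed strand of the hg19 genome sequence, with the crosslinked base in capitals and 10 bases on either side.
PPIH, exon 2, chr1:43124542: gatcgagctcTttgcagacgt
PPIH, exon 1, chr1:43124162: tggtgttcttTgatgtcagta
PRMT1, exon 4, chr19:50185218: ctccatgtttCataaccggca
PRMT1, exon 5, chr19:50185477: tatctctgatTatgcggtgaa
KAT2A, exon 12, chr17:40267786: ttctctacttCctcacctacg
KAT2A, exon 12, chr17:40267795: agcacaacatTctctacttcc
CHD3, exon 40, chr17:7815203: atacacaactTcccagtaaat
CPT1B, exon 16, chr22:51009422: agcaccagaaTatgtaccgcc
CPT1B, exon 19, chr22:51007792: gctgatctttTccaagttccc
All of these bases lay in exons of the canonical transcript. The CHD3 base was in its 3′ untranslated region (UTR), and the other bases were in coding sequence. The CPT1B base in exon 16 was the only base of the 5 genes that was hit in all 3 Alyref libraries, with 3 tags, and the others shown were hit in 2. The PPIH base in exon 2 also had 3 Alyref tags, and each remaining base had 2. None of the bases shown had a Control tag, which carries little weight with 3 to 8 Control tags per gene. The PRMT1 base in exon 5 also had 1 Nxf1 tag, and the KAT2A base at 40267795 had 1 Chtop tag. Repeated hits were rare. Among bases with Alyref tags, 3 of 112 in PPIH, 4 of 127 in PRMT1, 13 of 262 in KAT2A, 1 of 124 in CHD3 and 5 of 154 in CPT1B were seen in 2 or more Alyref libraries. The crosslinks were spread along the RNA rather than stacked on a few sites, and no base of the 5 genes had more than 3 tags in a group.

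PRMT1 (ENSG00000126457, chr19:50179043-50192286, plus strand) had 13, 75 and 45 tags in Alyref libraries 1, 2 and 3. Its Chtop libraries had 0, 13 and 9 tags, its Nxf1 libraries 0, 15 and 13, and its Control libraries 2, 4 and 0. Per 1000000 tags this was 160, 119 and 74.6 CPM for Alyref (118 ± 42.7, SD, n = 3) against 0, 24.1 and 21.0 CPM for Chtop (15.0 ± 13.1, SD, n = 3). All 3 Alyref libraries were above all 3 Chtop libraries. With 3 tags taken as the limit of an empty library, the Chtop library with no tag allowed up to 63.8 CPM. That is under the lowest Alyref value, but a wider limit could reach it. The Nxf1 libraries, at 0, 126 and 72.5 CPM, overlapped the Alyref range. Pooled over libraries, Alyref reached 101 CPM on PRMT1 (exact 95% Poisson interval 84.6 to 120), Nxf1 91.3 (60.7 to 132), Control 66.2 (24.3 to 144) and Chtop 21.7 (13.6 to 32.8). The Poisson intervals cover counting error only. PRMT1 thus had few Chtop crosslinks, while the Alyref, Nxf1 and Control intervals overlapped.

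PPIH (ENSG00000171960, chr1:43124006-43142429, plus strand) resembled PRMT1. It had 11, 62 and 45 Alyref tags, 1, 13 and 3 Chtop tags, 0, 7 and 9 Nxf1 tags, and 3, 2 and 3 Control tags. The Alyref libraries stood at 135, 98.2 and 74.6 CPM (103 ± 30.6, SD, n = 3) and the Chtop libraries at 21.3, 24.1 and 6.98 CPM (17.5 ± 9.18, SD, n = 3). The Alyref and Chtop libraries did not overlap. The Nxf1 libraries with tags, at 58.7 and 50.2 CPM, were below the lowest Alyref library, but the shallowest Nxf1 library could not show a level of this size. PPIH was also the member nearest to its background: pooled, it reached 89.7 CPM for Alyref (74.2 to 107) and 88.3 CPM for Control (38.1 to 174). Whether the Alyref tags of PPIH exceeded the Control could not be seen from 8 Control tags.

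KAT2A (ENSG00000108773, chr17:40265129-40273385, minus strand) was the member with the most tags. Alyref gave 15, 140 and 121 tags, Chtop 8, 72 and 80, Nxf1 2, 4 and 2, and Control 2, 3 and 2. Alyref libraries stood at 184, 222 and 201 CPM (202 ± 18.6, SD, n = 3) and Chtop libraries at 170, 134 and 186 CPM (163 ± 26.9, SD, n = 3). The Alyref and Chtop ranges overlapped, since Chtop library 3 lay above Alyref library 1. Pooled, Chtop reached 158 CPM (134 to 184), just below the Alyref interval of 186 to 236, and these intervals cover counting error only. The Nxf1 libraries stood at 246, 33.6 and 11.2 CPM, and the value of 246 came from 2 tags in the shallowest library. Pooled, Nxf1 reached 26.1 CPM (11.3 to 51.4) against 210 CPM for Alyref (186 to 236) and 77.2 CPM for Control (31.1 to 159), although 1 Control library, with 2 tags, stood at 285 CPM. KAT2A was therefore low in the deeper Nxf1 libraries, while 2 tags in the shallowest library lay within its limit of 369 CPM. A readthrough gene without a symbol (ENSG00000267261) shares 1694 nt of KAT2A on the same strand, and the 78 Alyref, 38 Chtop, 0 Nxf1 and 1 Control tags in that stretch cannot be told apart between the 2 genes.

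CPT1B (ENSG00000205560, chr22:51007290-51016894, minus strand) had 13, 88 and 63 Alyref tags and 2, 47 and 31 Chtop tags. Nxf1 gave 0, 0 and 3 tags, and Control 0, 5 and 0. Alyref libraries stood at 160, 139 and 104 CPM (135 ± 28.0, SD, n = 3), all above the Chtop libraries at 42.5, 87.2 and 72.2 CPM (67.3 ± 22.8, SD, n = 3). Pooled over libraries, Alyref reached 125 CPM on CPT1B (106 to 145), Chtop 78.8 (62.5 to 98.1), Control 55.2 (17.9 to 129) and Nxf1 9.78 (2.02 to 28.6). The Nxf1 interval lay below the Alyref interval. All CPT1B tags also lay inside CHKB-CPT1B, an annotated readthrough gene on the same strand, and tags of the 2 genes cannot be told apart.

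CHD3 (ENSG00000170004, chr17:7788114-7816078, plus strand) went against the label for Chtop. It had 5, 73 and 48 Alyref tags and 5, 76 and 54 Chtop tags. Nxf1 gave 0, 3 and 0 tags, and Control 2, 0 and 1. Alyref libraries stood at 61.5, 116 and 79.6 CPM (85.5 ± 27.5, SD, n = 3) and Chtop libraries at 106, 141 and 126 CPM (124 ± 17.4, SD, n = 3). The groups overlapped, since Alyref library 2 lay above Chtop library 1. Pooled over libraries, Chtop reached 133 CPM on CHD3 (112 to 157), Alyref 95.7 (79.7 to 114), Control 33.1 (6.83 to 96.7) and Nxf1 9.78 (2.02 to 28.6).

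**Figure D1:**
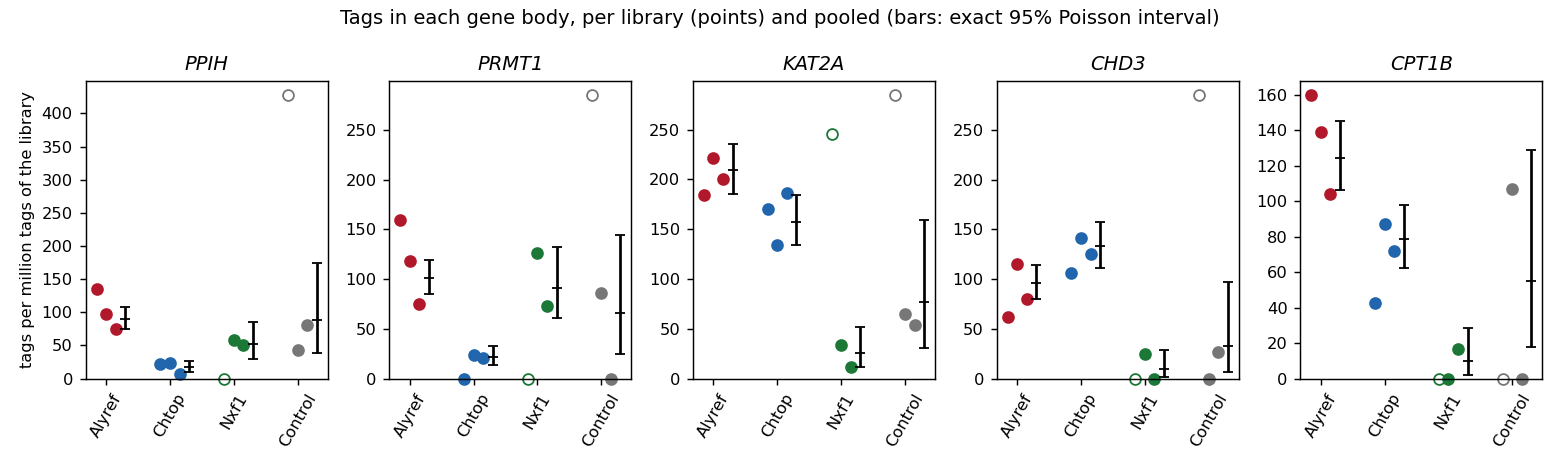
Tags of each gene in CPM (y axis), with 1 point per library and a bar for the pooled group with its exact 95% Poisson interval. Open points are libraries under 10000 tags. The Chtop points of PPIH and PRMT1 sit below their Alyref points, the filled Nxf1 points of KAT2A, CHD3 and CPT1B sit near 0, and the Control intervals are wide.

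The same 2 patterns were visible after fitting all genes together. In edgeR's quasi-likelihood model, 4 of the 5 genes passed the filter on low counts, as did 3319 genes in all, and PPIH did not, so its values come from the fit without the filter. The log2 difference between Alyref and Chtop was 2.23 ± 0.46 (SE, derived from the F statistic) for PRMT1, the highest of all 3319 genes, and 2.43 ± 0.47 for PPIH. It was 0.66 ± 0.34 for CPT1B, 0.28 ± 0.28 for KAT2A and -0.57 ± 0.32 for CHD3. Against Nxf1 the order turned over. The log2 difference between Alyref and Nxf1 was 3.29 ± 0.71 for CPT1B, 2.83 ± 0.74 for CHD3 and 2.58 ± 0.50 for KAT2A, which ranked 4, 6 and 8 from the top of the 3319 genes. It was 0.73 ± 0.50 for PPIH and -0.12 ± 0.46 for PRMT1. Against Control the differences of the 4 filtered genes ran from 0.49 ± 0.73 for PRMT1 to 1.27 ± 0.87 for CHD3, beside a median of 0.20 over all genes tested. PPIH stood at 0.29 ± 0.64 in the unfiltered fit, where the median was 0.92, so it lay below the typical gene of its own fit.

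Over all genes tested, the fit called 7.29% higher and 10.7% lower for Alyref than for Chtop at an adjusted p under 0.05, and 3.16% higher and 1.69% lower for Alyref than for Nxf1. These shares give the setting in which the 5 were found and say nothing further about them, since these contrasts chose them. The 3 contrasts share the Alyref libraries. DESeq2 on the same counts called 85 genes in place of 597 for Alyref against Chtop, 22 higher and 63 lower in place of 242 and 355, and 24 in place of 161 for Alyref against Nxf1, 18 higher and 6 lower in place of 105 and 56.

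**Figure D2:**
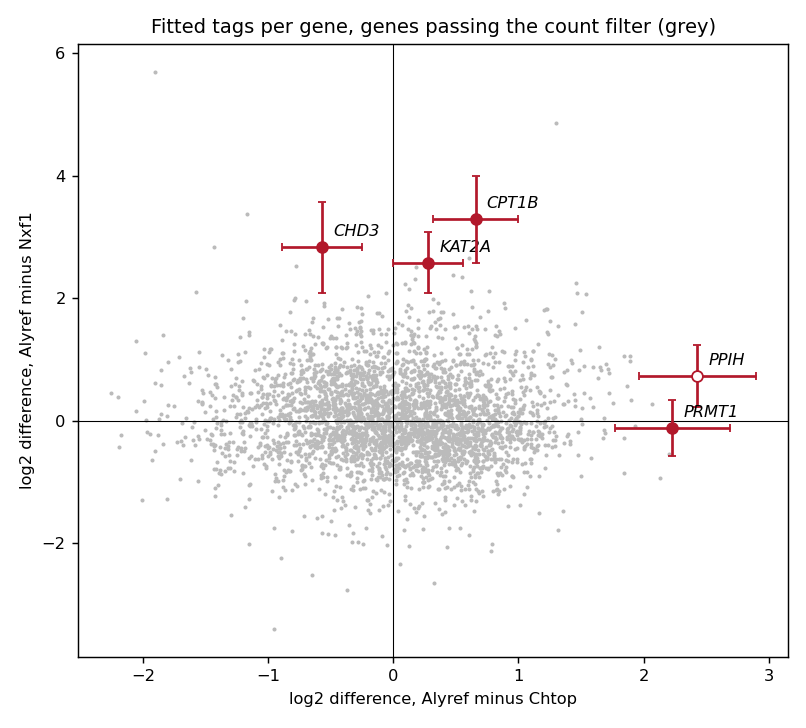
Fitted log2 difference in tags per gene, Alyref minus Chtop (x axis) and Alyref minus Nxf1 (y axis), for the 3319 genes that passed the filter (grey) and the 5 genes (red, bars 1 SE, PPIH open because it is from the unfiltered fit). The axes share the Alyref libraries. PRMT1 and PPIH lie at the right edge near 0 on the y axis, and CPT1B, CHD3 and KAT2A lie near the top between -0.57 and 0.66 on the x axis.

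Because the Nxf1 and Control libraries held more intron tags, the levels were also taken over exons alone, as exon tags of a gene per 1000000 exon tags of all genes, a measure chosen after the values were seen. The pooled Alyref level of CHD3 was then 202. The Nxf1 level was 62.3 for KAT2A (exact 95% Poisson interval 17.0 to 160), 31.1 for CPT1B (3.77 to 113) and 15.6 for CHD3 (0.394 to 86.8), from 4, 2 and 1 tags. In each of these genes the Nxf1 interval lay below the Alyref interval. The PRMT1 level was 158 for Alyref, 37.7 for Chtop and 202 for Nxf1. Against Chtop the exon scale moved KAT2A and CPT1B up, and Chtop libraries held a larger share of exon tags over all genes. The KAT2A level was 463 for Alyref (407 to 525) and 277 for Chtop (234 to 326), and the CPT1B level 259 (217 to 307) and 117 (89.5 to 150). For CHD3 the exon intervals of Alyref (165 to 244) and Chtop (186 to 268) overlapped. The PPIH level was 80.1 for Alyref (57.7 to 108), 5.65 for Chtop (1.17 to 16.5) and 62.3 for Nxf1 (17.0 to 160). The Control level was above that of Alyref for PPIH (86.0) and PRMT1 (172) and below it for KAT2A (430), CPT1B (258) and CHD3 (86.0). These Control levels rested on 1 to 5 exon tags per gene, and the Control interval included the Alyref level in all 5 genes.

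The gene bodies were on the short side. They spanned 8257 nt (KAT2A) to 27965 nt (CHD3), all below the median of 33166 nt for genes with 3 or more exons. Median intron length was 157 nt in KAT2A, 256 nt in CHD3 and 289 nt in CPT1B, the genes low for Nxf1, which put each of them under the 10th percentile. It was 763 nt in PPIH and 870 nt in PRMT1, the genes low for Chtop, at the 24.4th and 27.0th percentile. The lengths themselves were not used to choose the genes, but the choice counted tags over whole gene bodies. Over all genes introns held 65.7% of Nxf1 and 47.6% of Alyref tags, so intron length is not independent of that choice. How far the choice favoured short introns was not tested, and with 5 genes the figures remain a description. Exon number ran from 10 in PPIH and 11 in PRMT1 to 18 in KAT2A, 20 in CPT1B and 40 in CHD3. Spliced length varied more widely. PPIH was the shortest message, at 754 nt (3.48th percentile), and all 8 of its middle exons were under 100 nt. PRMT1 followed at 1328 nt (12.6th percentile), CPT1B at 2603 nt (40.4th) and KAT2A at 3115 nt (49.5th). CHD3 was long after splicing, at 7385 nt (89.7th percentile), and its exon number was at the 97.8th percentile. Introns were GC-rich in PRMT1 (58.4%), KAT2A (57.9%) and CPT1B (58.9%), at the 92.2nd to 93.4th percentile, and less so in CHD3 (50.2%) and PPIH (43.7%).

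The Alyref tags ran along nearly the whole spliced message. They touched 18 of 18 exons of KAT2A, 19 of 20 of CPT1B, 35 of 40 of CHD3, 11 of 11 of PRMT1 and 8 of 10 of PPIH. Chtop touched 15 exons of KAT2A, 15 of CPT1B, 31 of CHD3, 7 of PRMT1 and 2 of PPIH. Nxf1 touched 2, 2, 1, 8 and 4 in the same order, with 4, 2, 1, 13 and 4 exon tags. The exons touched cannot outnumber the exon tags. KAT2A, CPT1B and CHD3 were picked for few Nxf1 tags, so the Nxf1 exon counts add nothing to that. Exons held 88.0% of the Alyref tags of KAT2A (exact 95% binomial interval 83.6 to 91.6), 84.1% of CHD3 (76.6 to 90.0), 82.9% of CPT1B (76.3 to 88.4), 62.4% of PRMT1 (53.6 to 70.6) and 35.6% of PPIH (27.0 to 44.9). Over all genes with 3 or more exons, exons held 52.4% of Alyref tags. The 3 genes low for Nxf1 had the highest exonic shares of the 5, and PPIH was mostly intronic. Nxf1 tags were more often intronic over all genes, so these shares are not independent of the choice either.

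**Figure D3:**
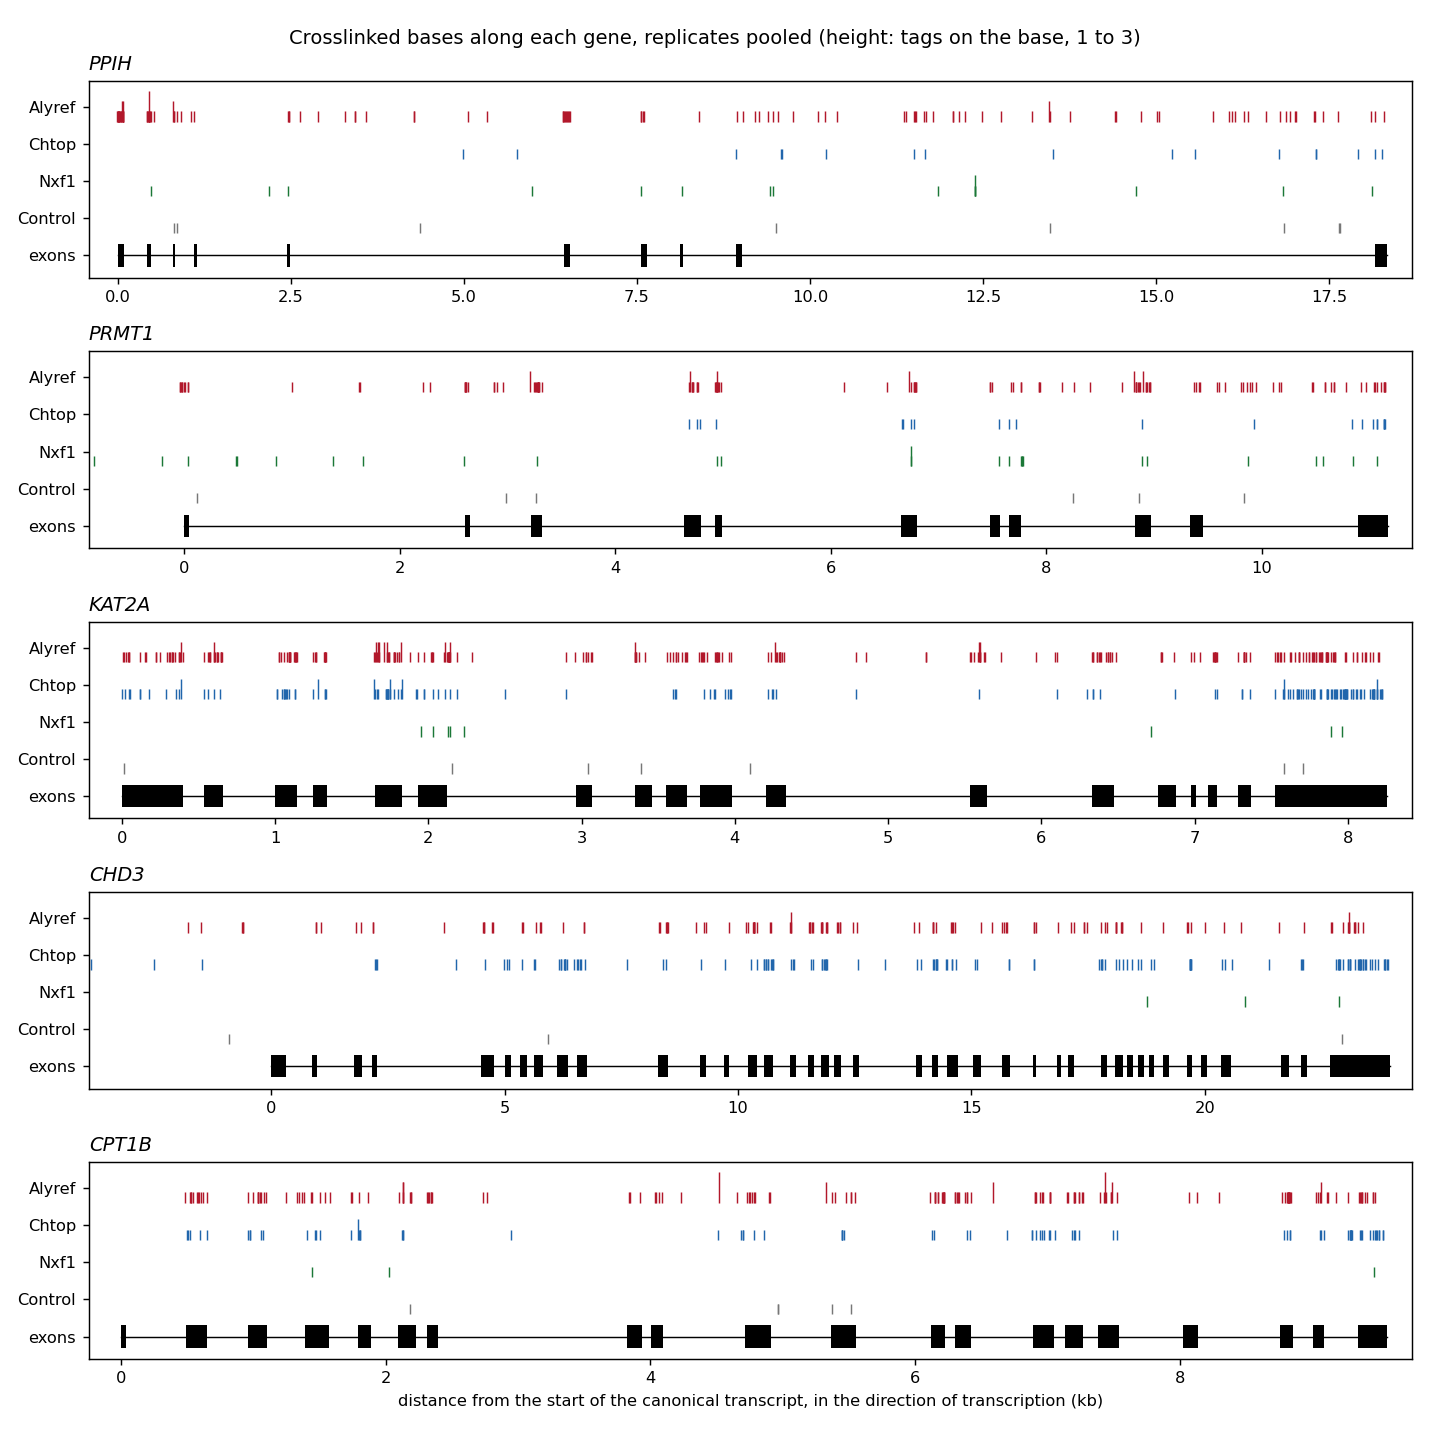
Crosslinked bases along each gene, with replicates pooled and 1 lane per group over the exons of the canonical transcript (x axis, kb from its start; height of a mark, 1 to 3 tags on the base). Alyref marks follow the exons of KAT2A, CHD3, CPT1B and PRMT1 and also fill the last intron of PPIH, Chtop marks gather in the last exon of KAT2A, and the Nxf1 lanes of KAT2A, CHD3 and CPT1B hold 8, 3 and 3 tags.

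In PPIH the exonic Alyref tags lay toward the 5′ end. Exon 1, which holds the cap-proximal 90 nt, had 2, 8 and 5 Alyref tags and no tag in any Chtop, Nxf1 or Control library. Exon 2 had 2, 4 and 5 Alyref tags, 1 Nxf1 tag and none of Chtop or Control. Chtop had no tag in exons 1 to 8 and 3 in exons 9 and 10. The share of PPIH Alyref tags in exon 1 was 12.7% (7.29 to 20.1), and 0 of 17 Chtop tags allowed up to 19.5%, so the difference was not detectable at this depth. Intron 9, which is 9143 nt long, held the most PPIH tags of any exon or intron, with 3, 29 and 20 Alyref tags, 1, 10 and 1 Chtop tags, 0, 4 and 6 Nxf1 tags and 1, 1 and 3 Control tags. Per length, intron 9 had 4.32 Alyref tags per kb per 1000000 tags, against 127 in exon 1 and 129 in exon 2 but 8.44 in exon 9 and 4.34 in exon 10, and exons 4 and 8 had no Alyref tag. Control had 6.04 tags per kb per 1000000 tags in intron 9, from 5 tags, so Alyref was not above it there. Of the 74 intronic Alyref tags, 27 lay in exons of other annotated PPIH isoforms.

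In PRMT1, Alyref tags were spread over exons 2 to 9, from 2 tags in exon 7 to 14 in exon 9. Intron 10 held 2, 10 and 8 Alyref tags, 0, 2 and 0 Chtop tags and 0, 2 and 2 Nxf1 tags. Intron 8 held 0, 7 and 2 Alyref tags, none of Chtop and 3 of Nxf1, and 971 of its 1055 nt are exonic in other isoforms. Chtop thus had 2 intronic tags in all of PRMT1, against 43 for Alyref, 13 for Nxf1 and 4 for Control. Per length and depth, on the scale used for PPIH, the PRMT1 introns stood at 3.32 for Alyref and 0.2 for Chtop. On that scale they stood at 4.30 for Nxf1 and 4.48 for Control. Alyref was therefore not above Nxf1 or Control there, and the Control value rested on 4 tags. Introns made up 30.8%, 30.7% and 35.6% of the PRMT1 tags of the 3 Alyref libraries, and 46.7% and 46.2% of the Nxf1 libraries that had tags.

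KAT2A and CPT1B are built of short introns, and few of their tags lay there. Intron 6 of KAT2A, 841 nt long, was the fullest, with 3, 5 and 6 Alyref tags, 0, 2 and 2 Chtop tags, and 3 Nxf1 tags, all in 1 library. In CPT1B the fullest introns for Alyref were intron 3, with 0, 4 and 1 tags, and intron 9, with 3, 0 and 2. Intron 19 of CPT1B, of which 252 of 254 nt are exonic in other isoforms, was the fullest for Chtop, with 0, 5 and 2 tags beside 1, 2 and 1 for Alyref. In CHD3 no intron held more than 3 Alyref tags. SCARNA21, a small Cajal body RNA annotated inside CHD3 on the same strand, overlapped 3 Alyref tags, which cannot be told apart from CHD3.

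The balance of intron to exon tags was not used to choose the genes and was tested over all genes with at least 10 tags in each part. After TMM scaling, which is meant to set the typical gene near 0, the log2 intron-to-exon ratio of Alyref differed from that of Chtop by -1.96 ± 0.98 (SE) in PPIH, where introns held 62.7% of Alyref and 82.4% of Chtop tags. The difference was -1.34 ± 0.67 in CPT1B, 1.31 ± 1.07 in PRMT1, -0.53 ± 0.73 in CHD3 and -0.39 ± 0.66 in KAT2A. PPIH met the minimum of 10 exon tags only through Alyref, for which it was picked. It had 3, 4 and 1 exon tags of Chtop, Nxf1 and Control, so its differences are given without a test. Of the other members none passed, with edgeR quasi-likelihood p-values adjusted over the 9050 genes tested. These were 0.606 for CPT1B, 0.826 for PRMT1, 0.93 for CHD3 and 0.955 for KAT2A. The Chtop side rested on 3 exon tags in PPIH and 2 intron tags in PRMT1. Against Nxf1 the difference was -0.01 ± 0.77 in PRMT1 (edgeR quasi-likelihood adjusted p = 1), with 13 exon and 13 intron tags of Nxf1. In PPIH it was 0.15 ± 1.13, given without a test, with 4 and 12 such tags. The other genes met the minimum of 10 tags per part through Alyref and Chtop, and Nxf1 gave 4 exon and 4 intron tags in KAT2A, 2 and 1 in CPT1B, and 1 and 2 in CHD3, the latter all in 1 library, so no comparison with Nxf1 could be made there. The Control gave 1 to 5 exon and 1 to 7 intron tags per gene, which is also too few. Over all genes the same test called 0.122% for Chtop, 0.32% for Nxf1 and 0.0773% for Control. With the replicate number as a block it called 8 genes in place of 29 for Nxf1 and 3 in place of 7 for Control. In simulated data it recovered 6 of 100 genes changed 4-fold and 77 of 100 changed 16-fold for Alyref against Chtop, so moderate differences in the 5 genes were below its reach. Directions depended on the scaling. The median over all genes was -0.02, -0.20 and -1.54 against Chtop, Nxf1 and Control with TMM, 0.91, -0.98 and -2.01 with 1 library size, and -0.19, 0.55 and 0.62 with DESeq2. Of the genes called against Nxf1, 6 of 29 were higher in Alyref with edgeR and 115 of 120 with DESeq2, and against Chtop 6 of 11 and 4 of 33.

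**Figure D4:**
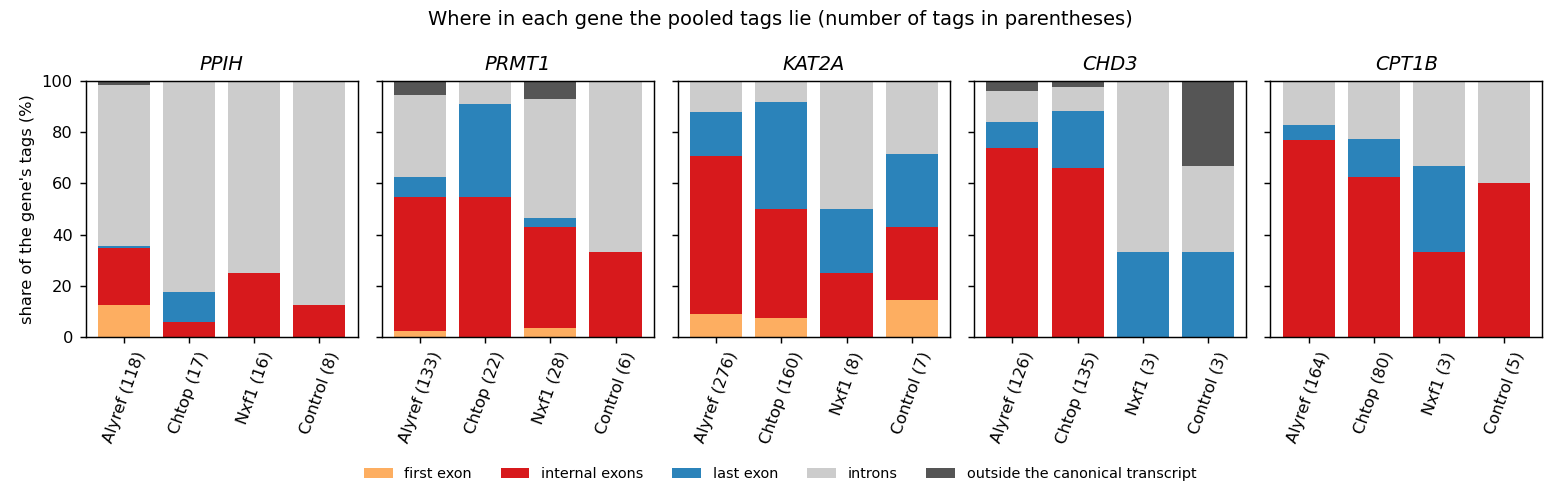
Share of the pooled tags of each gene (y axis, %) in the first exon, internal exons, last exon and introns of the canonical transcript, by group, with the number of tags in parentheses. The last exon of KAT2A takes 17.4% of Alyref and 41.9% of Chtop tags, introns take 62.7% of the Alyref tags of PPIH, and bars over 8 tags or fewer carry little weight.

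Within the exons, Chtop tags leaned to the last exon in the genes that had enough of them. In KAT2A the last exon, which is 732 nt long and holds the 3′ UTR, took 13.3%, 12.9% and 23.1% of the tags of the 3 Alyref libraries and 62.5%, 45.8% and 36.2% of the Chtop libraries, without overlap. In CHD3 the last exon took 10.3% of the pooled Alyref tags (5.61 to 17.0) and 22.2% of the Chtop tags (15.5 to 30.2). Library 1 of either group had no CHD3 tag there, out of 5, and the deeper libraries stood at 6.85% and 16.7% for Alyref and 25.0% and 20.4% for Chtop. In PRMT1 it took 7.52% of Alyref (3.66 to 13.4) and 36.4% of Chtop tags (17.2 to 59.3), and in CPT1B 6.10% (2.96 to 10.9) and 15.0% (8.0 to 24.7). Over all genes with 3 or more exons, last exons held 31.8% of the Alyref and 52.4% of the Chtop exon tags. On that scale, of exon tags alone, the Alyref and Chtop shares were 19.8% and 45.6% in KAT2A, 12.05% and 40.0% in PRMT1, 12.3% and 25.2% in CHD3, and 7.35% and 19.4% in CPT1B, while PPIH had 1 of 42 Alyref and 2 of 3 Chtop tags there. The Alyref interval of every one of the 5 genes lay below the share of all genes. So did the Chtop intervals of CHD3 (17.7 to 34.0) and CPT1B (10.4 to 31.4), while those of KAT2A (37.4 to 54.0) and PRMT1 (19.1 to 64.0) included it. The last exon made up 221 of 2603 exon nt in CPT1B, 732 of 3115 in KAT2A and 286 of 1328 in PRMT1. It made up 1292 of 7385 in CHD3 and 175 of 754 in PPIH. These lengths were not set against those of all genes, so whether they account for the low shares was not tested. With 3 libraries against 3, no permutation test of a single gene can go below 0.10.

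The spliced transcript was also split at its midpoint into a 5′ and a 3′ part, and the ratio of their tags was tested over genes with at least 10 tags in each. This covered 4 of the 5 genes, since PPIH had too few tags in its 3′ part. After TMM scaling, each fitted value is relative to the other genes. The fitted log2 difference in the 5′-to-3′ ratio between Alyref and Chtop was 0.02 ± 0.34 in KAT2A and -0.03 ± 0.50 in CHD3. It was -0.01 ± 2.06 in PRMT1 and -0.43 ± 0.60 in CPT1B, beside a median of 0.21 over all genes tested. None of these differences passed (edgeR quasi-likelihood adjusted p = 0.803 to 0.999). Unscaled, the 5′ part held 129 of 243 Alyref and 60 of 147 Chtop exon tags in KAT2A. It held 62 of 106 and 56 of 119 in CHD3, 51 of 83 and 10 of 20 in PRMT1, and 56 of 136 and 23 of 62 in CPT1B. The unscaled Alyref share was higher in all 4, with overlapping exact 95% binomial intervals. A fitted value near 0 thus does not mean equal unscaled ratios. Over all 7556 genes the test called 3.73% for Alyref against Chtop, and it called 0% against Nxf1 and 0% against Control, where 386 and 128 genes had an unadjusted p under 0.05 with edgeR and DESeq2 also called 0. Of the genes called against Chtop, 202 of 282 were higher in Alyref with edgeR and 248 of 267 with DESeq2. In PPIH, 38 of 42 exonic Alyref tags lay in the 5′ part (90.5%, 77.4 to 97.3), beside 0 of 3 for Chtop and 3 of 4 for Nxf1.

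Alyref is known to crosslink upstream of spliced junctions, so exon tags within 100 nt upstream of a junction were split into those 24 to 75 nt before the junction and the rest. The bounds of the window follow the study, which drew them from these Alyref libraries, and are not independent of them. The study's profile left out the outermost junctions and those beside exons shorter than 100 nt, while every exon but the last was used here. All middle exons of PPIH are under 100 nt, so its junctions have no counterpart in that profile. It held 64.6% of such Alyref tags in PRMT1 (42 of 65, exact 95% binomial interval 51.8 to 76.1), 62.5% in CHD3 (40 of 64, 49.5 to 74.3) and 60.8% in CPT1B (59 of 97, 50.4 to 70.6). It held 51.2% in PPIH (21 of 41, 35.1 to 67.1) and 44.8% in KAT2A (65 of 145, 36.6 to 53.3). The window makes up 52.4% to 53.9% of the bases considered in the 5 genes, and over all genes it held 59.0% of Control tags, 58.9% of Alyref tags, 55.1% of Nxf1 tags and 53.6% of Chtop tags. The interval of each of the 5 genes included the share of bases, so an excess in the window was not detectable at this depth. KAT2A was the only member whose interval lay below the 58.9% of all genes. For Chtop the window held 41.7% in CPT1B (25.5 to 59.2), 53.7% in CHD3 (39.6 to 67.4) and 33.3% in KAT2A (21.1 to 47.5).

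UV crosslinking favours uracil, and most of the 5 genes were on the low side of their libraries. Uracil was the crosslinked base of 39.7% of Alyref tags in CHD3 (exact 95% binomial interval 31.1 to 48.8), 43.1% in KAT2A (37.2 to 49.2), 43.3% in CPT1B (35.6 to 51.2), 43.6% in PRMT1 (35.0 to 52.5) and 51.7% in PPIH (42.3 to 61.0). Over all tags it was 49.7% to 55.3% in the Alyref libraries, a range that lay above the intervals of CHD3 and KAT2A and met those of the other genes. Chtop gave 46.9% in KAT2A (39.0 to 54.9) and 48.1% in CHD3 (39.5 to 56.9), with 47.0% to 56.4% over all tags of its libraries. PPIH, the member with the lowest exon GC content (47.4%), had the highest uracil share. Tags on the opposite strand were scarce, at 0 to 3 in any group, except in CHD3, where Alyref had 9, Chtop 8, Nxf1 10 and Control 0.

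The relatives of the 5 genes are given beside the shares over all genes tested, of which 7.29% were called higher and 10.7% lower for Alyref than for Chtop. Of the 8 other protein arginine methyltransferase genes, 1 passed the filter on low counts, with a log2 difference between Alyref and Chtop of 0.46 that did not pass the test. Of the 16 other cyclophilin genes, 4 passed the filter, 1 was higher for Alyref than for Chtop and 2 were lower, with a median of -0.66 beside 0.02 over all genes tested. PPIG, a nuclear cyclophilin with an RS domain, was higher for Alyref, with pooled levels of 104 and 43.3 CPM and a log2 difference of 1.21 ± 0.38 (edgeR quasi-likelihood adjusted p = 0.0207). NKTR, a large cyclophilin with an RS domain, was lower, at 268 and 430 CPM (-0.80 ± 0.28, adjusted p = 0.0387). RANBP2, a nucleoporin with a cyclophilin domain, was also lower, at 138 and 227 CPM (-0.76 ± 0.27, adjusted p = 0.0404). The pooled Nxf1 and Control levels were 81.5 and 88.3 CPM in PPIG, 111 and 232 in NKTR and 52.2 and 88.3 in RANBP2. The Alyref level of PPIG thus stood near the Control, which rested on 8 tags. DESeq2 called none of the 3, with adjusted p of 0.209 for PPIG, 0.195 for NKTR and 0.321 for RANBP2. PPIG passed in 11 of the 12 alternatives that tested it, NKTR in 11 of 18 and RANBP2 in 10 of 18.

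Of the 28 other genes of the SAGA and ATAC complexes, 10 passed the filter and none passed between Alyref and Chtop or Nxf1 (median log2 difference -0.15 and -0.07). Of the 14 other NuRD genes, 11 passed the filter, with a median log2 difference of 0.20 between Alyref and Chtop and 0.13 between Alyref and Nxf1. RBBP4, the histone-binding subunit, was higher for Alyref than for Chtop, with 209, 184 and 146 CPM against 85.0, 94.7 and 53.5 CPM (log2 difference 1.11 ± 0.32, edgeR quasi-likelihood adjusted p = 0.0134). MTA1, a scaffold of NuRD that was named after its value was seen, was higher for Alyref than for Nxf1, at 387 and 150 CPM (1.11 ± 0.34, adjusted p = 0.0422). In RBBP4 the pooled levels were 168 CPM for Alyref, 124 for Nxf1 and 77.2 for Control, the last from 7 tags. In MTA1 the pooled Control level was 143.5 CPM, from 13 tags, close to that of Nxf1. DESeq2 called neither gene, with adjusted p of 0.173 for RBBP4 and 0.175 for MTA1. RBBP4 passed in 14 of 18 alternatives and MTA1 in 5 of 18. Of the 9 other carnitine shuttle genes, 2 passed the filter and neither passed the test (edgeR quasi-likelihood; log2 differences from Chtop of -0.02 and 0.24). In the intron-to-exon balance no other gene of these lists passed for Alyref against Chtop or Nxf1, among 6, 14, 20, 14 and 7 genes tested in the 5 lists.

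The genes with the pattern most like the mean of the 4 fitted members, by Euclidean distance over the 3 log2 differences of Alyref to Chtop, Nxf1 and Control, were sought among 3035 genes with at least the lowest member's average level. The mean stood at 0.65, 2.15 and 1.01. The nearest were HSP90B1 (distance 0.28), RHOT2 (0.35), PNN (0.36), MYBBP1A (0.45) and IARS1 (0.59). RHOT2, for instance, had pooled levels of 222 CPM with Alyref, 140 with Chtop, 121 with Control and 39.1 with Nxf1. The members themselves were not close to their mean, at distances from 0.61 for KAT2A to 2.81 for PRMT1.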

How the data were processed

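The 12 iCLIP libraries (4 groups of 3) were sequenced in 32 lane runs, which were not used as replicates. The authors deposited, for each library, the count of tags at each crosslinked base with its strand, on hg19. Per the study's methods, phiX reads were removed with Bowtie 1.1.2, molecular identifiers were taken off with UMI-tools 0.5.3, and trimmed reads were placed on the genome with STAR 2.4.2a, uniquely mapping reads only, with splicing limited to annotated junctions. Lanes of a library were merged before duplicates sharing an identifier were removed, so a tag is 1 deduplicated read, counted at its deletion or just 5′ of its start. Library 2 of every group ran on other HiSeq lanes than libraries 1 and 3.

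The counts were assigned by strand to the bodies of 19234 protein-coding genes of GENCODE release 44 lifted to GRCh37, the same coordinates as hg19. Tags lying in more than 1 protein-coding gene were left out, readthrough genes set aside. Exons and introns are those of the canonical transcript. Antisense overlaps do not mix, because tags carry strand. Levels (CPM) are tags per 1000000 tags of the library, with exact Poisson intervals, and shares have exact (Clopper-Pearson) binomial intervals, both at 95%. A count of 0 was read as allowing up to 3 tags in that library.

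Tags per gene were fitted with edgeR 4.0.16 in R 4.3.3 (quasi-likelihood, TMM, filterByExpr, all 12 libraries, no block), and the intron-to-exon and 5′-to-3′ balances with the same test on 24 columns with a term per library, for genes with at least 10 tags in each part. P-values were adjusted by Benjamini-Hochberg over all genes tested, with a threshold of 0.05. The SE given with an edgeR difference is the size of the difference over the square root of its F statistic. Such an SE is not reliable where the difference is very small. DESeq2 1.42.0 was an alternative, as were other filters, scalings, gene assignments, a replicate block and leaving out each library. Fits were tested on simulated data. Intervals came from scipy 1.17.1 in Python 3.11.15.

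The 5 genes, the family lists and the tests were chosen with earlier results of these data known. The genes named besides the 5 are, from each family list, up to 3 with the largest difference among those that passed for Alyref against Chtop or in the intron balance, and the 5 nearest in pattern among genes at least as abundant as the lowest member. MTA1, which passed against Nxf1, falls outside this rule and was named after its value was seen. The Control had no tetracycline dose in the labels, and the labels do not say whether libraries of a group came from separate cultures. Sequences were read from the GRCh37 genome.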

Additional observations from a re-analysis of the deposited data

How the results depend on the processing

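The values of the 5 genes rest on few Nxf1 tags. Of their log2 differences in tags per gene under the alternatives, 10 moved by over 1 SE. None of their balances was called, which says nothing of stability at these tag numbers. The intron balance against Chtop kept its sign in PPIH (-2.34 to -0.77), CPT1B (-1.97 to -0.32) and PRMT1 (0.33 to 3.45) but not in KAT2A (-0.95 to 0.65) or CHD3 (-0.92 to 0.37). Against Nxf1 it changed sign in CHD3 (-3.74 to 2.10), CPT1B (-2.32 to 0.36), PPIH (-0.82 to 0.93) and PRMT1 (-0.95 to 0.71), against Control in all 5 genes (PPIH -5.00 to 2.23), and the 5′-to-3′ balance against Chtop in all 4 genes tested (PRMT1 -1.64 to 1.31). The log2 difference of KAT2A from Chtop fell to 0.00 without Chtop replicate 2, and that from Nxf1 to 1.93 without Nxf1 replicate 3. CHD3 against Nxf1 went from 2.83 to 1.81 without Nxf1 replicate 3 and CPT1B from 3.29 to 2.48 without Nxf1 replicate 2. Without the other deep Nxf1 library all remaining Nxf1 tags were 0, and no fold is given. Scaled by exon tags, the difference from Chtop became 0.74 for KAT2A, -0.15 for CHD3 and 1.15 for CPT1B, and that of CHD3 from Nxf1 3.70.

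Counts over all genes moved more. For tags per gene, DESeq2 called 85 genes against Chtop (597 with edgeR) and 24 against Nxf1 (161). For the intron balance against Chtop (11 called), DESeq2 called 33, 1 library size without TMM 5, each base counted once 22 and merged isoform exons 4. Against Nxf1 (29 called) it was 120 with DESeq2, 1 without the filter and 0 with merged exons. Against Control (7 called) it was 0 with DESeq2, without the filter and with merged exons, 14 with tags in any other gene left out and 12 with each base counted once. For the 5′-to-3′ balance against Chtop (282 called) it was 155 without the filter. The causes were not tested.

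Leaving out 1 library gave 96 to 874 genes against Chtop and 7 to 231 against Nxf1 for tags per gene. The former fell to 103 without Alyref replicate 2, 96 without Alyref replicate 3 and 205 without Chtop replicate 3, and the latter to 7, 37, 32 and 15 without Alyref replicate 2, Alyref replicate 3, Nxf1 replicate 2 and Nxf1 replicate 3. The intron balance gave 0 to 30 against Chtop, 0 to 42 against Nxf1 and 0 to 12 against Control. The 5′-to-3′ balance gave 38 to 320 against Chtop, with 48, 96, 64 and 38 without replicates 2 and 3 of Alyref and of Chtop, and 0 against Nxf1 and Control. The 5 named list genes kept their direction in every alternative that tested them. The call of RBBP4 was lost without Alyref replicate 2 (log2 difference 1.15), Alyref replicate 3 (1.26) or Chtop replicate 3 (0.78), those of NKTR and RANBP2 also without Control replicate 2 (-0.78 and -0.74) and that of RANBP2 without Chtop replicate 2 (-0.72), and that of MTA1 without any 1 Alyref or Nxf1 library, Chtop replicate 1 or 2 or Control replicate 3 (0.95 to 1.34). PPIG could not be tested without the deeper libraries.

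Same-numbered libraries did not all deviate together (r from -0.20 to 0.28, 7 of 18 pairs over 0.1, against 5 of 36 pairs of other numbers, and 1 of 12 libraries nearest to its own number), so the number was not used as a pairing. It does carry the sequencing lanes, since library 2 of each group ran apart from libraries 1 and 3, and a block on the number takes up any lane difference. With the replicate number as a block, 516 and 154 genes were called against Chtop and Nxf1, the intron balance gave 8 against Chtop, 8 against Nxf1 and 3 against Control, and the 5′-to-3′ balance 219 against Chtop.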
